A study of Mus musculus with 2 samples.

Results

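Messenger RNAs of 10 genes of the NRF2 and glutathione system were followed in single cells of the mouse tongue epithelium at 2 Zeitgeber times. The genes were Slc7a11, Mgst1, Gclc, Gclm, Nqo1, Hmox1, Srxn1, Txnrd1, Gsta4 and Gpx2, taken by symbol from the gene table of both libraries, and each symbol matched 1 of the 32285 rows. Of these, 8 had higher values in differentiated than in basal cells, 7 of them by the rule used here, Gclm ran the other way, and Txnrd1 leaned with Gclm. In cluster 1, a differentiated cell state, 6 of the 10 were above all other cells by the rule in both libraries, more than in any other cluster with at least 20 cells in each library. Of the 7, the call of Gclc depended on the clustering. No gene of the set met the rule for a difference between ZT12 and ZT0 over all cells.

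Both libraries came from the tongue epithelium of male mice labelled B57BL/6, with no genotype or treatment beyond the time of collection, aged 8 to 12 weeks and collected at ZT0 or ZT12. By the usual convention ZT0 is lights on and ZT12 lights off. The epithelium was minced and digested with TrypLE, a trypsin-like enzyme, and the dye 7-AAD served to sort living cells before 10x Genomics 3' library preparation. Each time has 1 library, the sources used here do not state how many mice it holds, and time, library and animal cannot be told apart.

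After filtering, the ZT0 library held 1593 cells with 49256011 UMIs (unique molecular identifiers, each standing for 1 captured transcript) and the ZT12 library 2620 cells with 67059151 UMIs. The median cell had 28401 and 23088 UMIs. The libraries shared 2 cell barcodes. Cells fell into 21 clusters, built without the 10 genes and without a wider list of 89 pathway genes. Basal-like cells carried 5433 CPM of Krt5 (CPM scales a count to the total of the cells summed) and 1180 CPM of Col17a1, against 1054 and 54.3 CPM in differentiated-like cells, and Krt13 stood at 3786 and 37051 CPM. Markers of Langerhans and other myeloid cells summed to 271 CPM at ZT0 and 61.8 CPM at ZT12, with none of the 8 at 0, while fibroblast markers summed to 813 and 422 CPM with 4 of the 6 at 0. The part of either in the results below was not tested.

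NRF2, encoded by Nfe2l2, is a transcription factor that KEAP1 holds down by marking it for degradation. Oxidants and electrophiles modify KEAP1, NRF2 then accumulates, and with small MAF partners it binds antioxidant response elements, while BACH1 occupies the same elements as a repressor. The targets supply and use glutathione, reduce thioredoxin, and detoxify quinones, haem and lipid aldehydes. In stratified epithelia such as the tongue, cells divide in the basal layer and keratinise as they move outward.

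All levels are CPM of UMIs summed over the cells of a group, with exact Poisson 95% intervals, and ratios carry exact 95% intervals. The intervals cover counting error only. Counts from the 3' end were not scaled by transcript length, so levels are compared between cell states and times and not between genes. A ratio was called where it was at least 1.5 in size, its interval excluded 1 and the mean level was at least 5 CPM.

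The upstream sequences of 5 of the genes are printed: the 4 with a match to the element described below, and Slc7a11, which had none. Of these, Slc7a11, Mgst1 and Srxn1 were higher in differentiated cells, and Gclm and Txnrd1 were not. Nqo1 and Gpx2, also higher there, had no match and are not printed. The listed promoters of Mgst1 and Txnrd1 without a match are left out too. They were read from the RefSeq promoter table (GRCm38.p6), which holds 7 of the 10 genes. Gclc, Hmox1 and Gsta4 are named only. The core of the antioxidant response element was searched as TGACNNNGC on both strands in windows of 250 bases before and 50 after a start site, and 4 of the 7 genes had a match in a listed promoter, against 14.0% of the 27025 genes of the table. By promoter, 4 of their 10 had one, against 12.4% of all 32851. For 4 genes the 250 bases before the start are shown, and capitals mark the match, which lies on the opposite strand and so reads as the reverse complement.
Slc7a11, chr3:50443614-50443863, minus strand, no match: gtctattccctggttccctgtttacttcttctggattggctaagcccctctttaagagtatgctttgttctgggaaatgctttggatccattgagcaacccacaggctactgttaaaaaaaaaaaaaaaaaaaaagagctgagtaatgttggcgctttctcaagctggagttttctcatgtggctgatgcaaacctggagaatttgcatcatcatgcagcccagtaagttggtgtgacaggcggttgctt
Mgst1, chr6:138140277-138140526, plus strand, 1 of its 2 listed promoters, match 56 bases upstream: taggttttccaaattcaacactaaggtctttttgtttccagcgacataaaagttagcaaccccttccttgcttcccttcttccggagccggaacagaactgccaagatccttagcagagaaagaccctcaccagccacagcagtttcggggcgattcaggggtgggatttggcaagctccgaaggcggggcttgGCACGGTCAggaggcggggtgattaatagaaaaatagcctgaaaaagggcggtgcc
Gclm, chr3:122245307-122245556, plus strand, match 134 bases upstream: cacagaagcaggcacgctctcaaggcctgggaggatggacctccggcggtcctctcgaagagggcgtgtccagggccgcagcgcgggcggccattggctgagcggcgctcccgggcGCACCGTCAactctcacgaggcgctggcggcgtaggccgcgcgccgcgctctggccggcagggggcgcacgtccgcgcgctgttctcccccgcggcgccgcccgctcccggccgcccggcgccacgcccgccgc
Txnrd1, chr10:82858956-82859205, plus strand, 1 of its 3 listed promoters, match 92 bases upstream: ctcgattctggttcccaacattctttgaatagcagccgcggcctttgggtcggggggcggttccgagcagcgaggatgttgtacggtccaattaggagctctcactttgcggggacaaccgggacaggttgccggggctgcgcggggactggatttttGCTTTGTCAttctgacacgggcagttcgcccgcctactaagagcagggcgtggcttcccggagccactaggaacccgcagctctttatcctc
In Srxn1 the match starts 28 bases after the start site, and the stretch around it is chr2:152105542-152105570, plus strand: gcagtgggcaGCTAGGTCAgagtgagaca
The Nqo1 and Gpx2 windows held no match, which says only that these letters are not in the window. A match was present in genes of both patterns, and it is a description of the sequence, not a bound site.

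Differentiated-like cells (612 cells at ZT0, 1096 at ZT12) were first set against basal-like cells (432 and 742 cells) within each library. Of the 10 genes, 7 were higher in differentiated-like cells by the rule in both libraries and 1, Gclm, was lower. Of all 9230 genes that could be called in both libraries, 10.4% were higher and 23.7% lower. Median depth differed between the classes, at 37898 and 31719 UMIs per cell in differentiated-like and 22911 and 18518 in basal-like cells, and its part in these ratios was not tested.

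Slc7a11 (chr3:49892526-50443614, minus strand) encodes xCT, the antiporter that brings cystine into the cell as the source of cysteine for glutathione. Basal-like cells had 2.54 CPM (25 UMIs) and differentiated-like cells 25.9 CPM (605 UMIs) at ZT0, and at ZT12 the levels were 2.52 CPM (35 UMIs) and 20.4 CPM (722 UMIs). Ratios of 10.2 (6.85 to 15.9) at ZT0 and of 8.10 (5.77 to 11.7) at ZT12 were the steepest of the 10 genes in either library. With so few basal UMIs the ratio moved with the clustering, reaching 38.5 at ZT12 under clustering resolution 1.5 and 17.5 under resolution 0.5.

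The enzyme that joins cysteine to glutamate, the rate-limiting step of glutathione synthesis, has a catalytic subunit, Gclc, and a modifier subunit, Gclm. The pair ran in opposite directions. Gclc (chr9:77754535-77794485, plus strand) had 46.3 CPM on the basal-like and 74.9 CPM on the differentiated-like side at ZT0, a ratio of 1.62 (1.46 to 1.80), and 60.0 and 91.5 CPM at ZT12, a ratio of 1.53 (1.41 to 1.65). The call of Gclc was lost under clustering resolution 0.5, with ratios of 1.31 and 1.38, and under resolution 1.5, with 1.41 and 1.34, and at ZT12 the mean of per-cell CPM gave 1.46. Gclm (chr3:122245557-122270732, plus strand) had 272 CPM on the basal-like and 102 CPM on the differentiated-like side at ZT0, so that basal-like cells were higher by 2.67 times (2.52 to 2.82). At ZT12 its levels were 356 and 125 CPM, higher in basal-like cells by 2.86 times (2.75 to 2.98).

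Among the genes that use glutathione, Mgst1 (chr6:138140316-138156755, plus strand), a membrane-bound glutathione transferase with peroxidase activity, had 46.6 CPM on the basal-like and 181 CPM on the differentiated-like side at ZT0. The ratio was 3.88 (3.52 to 4.28), and 6.64 under clustering resolution 1.5. At ZT12 the levels were 29.7 and 152 CPM, a ratio of 5.10 (4.61 to 5.65). Gsta4 (chr9:78182774-78209349, plus strand), which conjugates the lipid aldehyde 4-hydroxynonenal, stood at 386 and 702 CPM at ZT0 and at 372 and 668 CPM at ZT12, ratios of 1.82 (1.76 to 1.88) and 1.79 (1.74 to 1.85). Gpx2 (chr12:76792333-76795554, minus strand), an epithelial glutathione peroxidase, stood at 251 and 724 CPM at ZT0 and at 193 and 721 CPM at ZT12, ratios of 2.88 (2.76 to 3.003) and 3.73 (3.59 to 3.89). Gpx2 overlaps Fntb on the opposite strand.

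Nqo1 (chr8:107388225-107403206, minus strand), a quinone reductase, had 67.7 CPM on the basal-like and 130 CPM on the differentiated-like side at ZT0, and had 50.7 and 104 CPM at ZT12. Its ratios were 1.92 (1.76 to 2.09) and 2.04 (1.88 to 2.21). Srxn1 (chr2:152105516-152111376, plus strand), sulfiredoxin, restores over-oxidised peroxiredoxins. It stood at 9.65 and 27.2 CPM at ZT0 and at 7.26 and 25.4 CPM at ZT12, ratios of 2.82 (2.27 to 3.54) and 3.50 (2.84 to 4.34).

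Hmox1 and Txnrd1 were not called. Hmox1 (chr8:75093621-75100589, plus strand), haem oxygenase 1, was scarce. Basal-like cells had 1.93 CPM (19 UMIs) and differentiated-like cells 5.14 CPM (120 UMIs) at ZT0, followed by 3.09 CPM (43 UMIs) and 6.57 CPM (233 UMIs) at ZT12, a mean under 5 CPM in each library. The ratio was 2.66 (1.63 to 4.58) at ZT0, 1.52 there under clustering resolution 0.5, and 2.13 (1.53 to 3.02) at ZT12. Txnrd1 (chr10:82833951-82897712, plus strand), the cytosolic thioredoxin reductase, had 20.2 CPM on the basal-like and 15.2 CPM on the differentiated-like side at ZT0 and 19.4 and 15.5 CPM at ZT12. Basal-like cells were higher by 1.32 times (1.11 to 1.58) and 1.248 times (1.07 to 1.45), under the size that the rule asks for. Txnrd1 overlaps Eid3 on the same strand, so reads of the overlap cannot be told apart. The same holds for Gclm with Gm6061 and for Slc7a11 with Gm37692 and Gm37498.

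**Figure D1:**
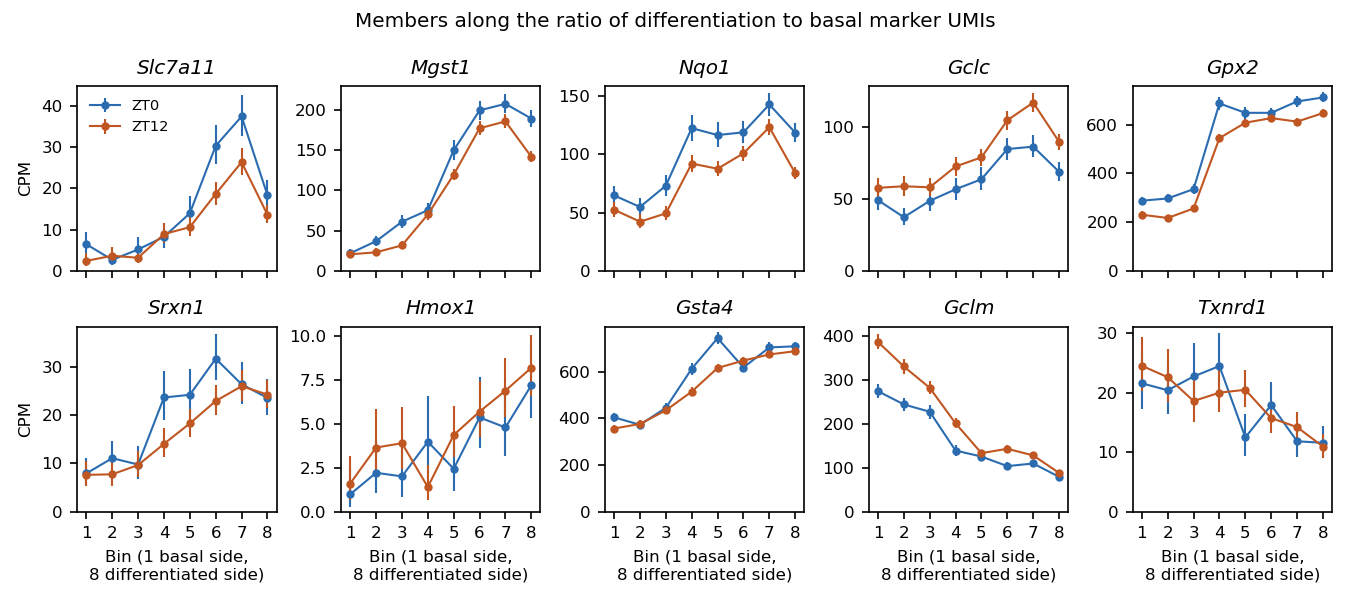
Level (CPM) of each of the 10 genes in 8 bins of cells ordered by the ratio of differentiation to basal marker UMIs, from the basal side (bin 1) to the differentiated side (bin 8), at ZT0 (blue) and ZT12 (orange). The cells are those of the basal-like, differentiated-like and unnamed clusters. Points are sums over 122 to 319 cells and bars are exact 95% Poisson intervals, and Slc7a11 and Nqo1 are highest in bin 7 while Gclm falls from bin 1 to bin 8 in both libraries.

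For Slc7a11, Mgst1, Nqo1 and Gclc the classes hide a highest level that lies short of the most differentiated marker ratio. Cells of the basal-like, differentiated-like and unnamed clusters were ordered by their ratio of differentiation to basal marker UMIs and divided into 8 bins. The other classes were left out. The order rests on marker UMIs and mixes clusters, so a bin is not shown to be a stage of differentiation. Slc7a11 stood at 6.45 CPM in the most basal bin at ZT0, reached 37.4 CPM in bin 7 and was 18.3 CPM in bin 8, and at ZT12 the values were 2.41, 26.3 and 13.6 CPM. Mgst1, Nqo1 and Gclc also had their highest value in bin 7 in both libraries. The bin 7 intervals of Mgst1 and Gclc overlapped those of bin 6 in both libraries, as did that of Slc7a11 at ZT0. The interval of Mgst1 at ZT0 also overlapped that of bin 8. Mgst1 went from 21.8 to 207 and then 189 CPM at ZT0, and from 20.5 to 186 and then 142 CPM at ZT12. Gclm fell from 275 CPM in bin 1 to 79.5 CPM in bin 8 at ZT0, and from 388 to 88.5 CPM at ZT12. Txnrd1 had its lowest level in bin 8 in both libraries, 11.6 and 11.0 CPM. Gpx2 stepped up between bins 3 and 4, from 335 to 687 CPM at ZT0 and from 256 to 545 CPM at ZT12. Both Gpx2 and Hmox1 had their highest value in bin 8 in both libraries, 711 and 647 CPM for Gpx2. The bin 8 intervals of Txnrd1 and Hmox1 overlapped those of bin 7 in both libraries. That of Gpx2 overlapped those of bins 4 and 7 at ZT0 and of bin 6 at ZT12.

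**Figure D2:**
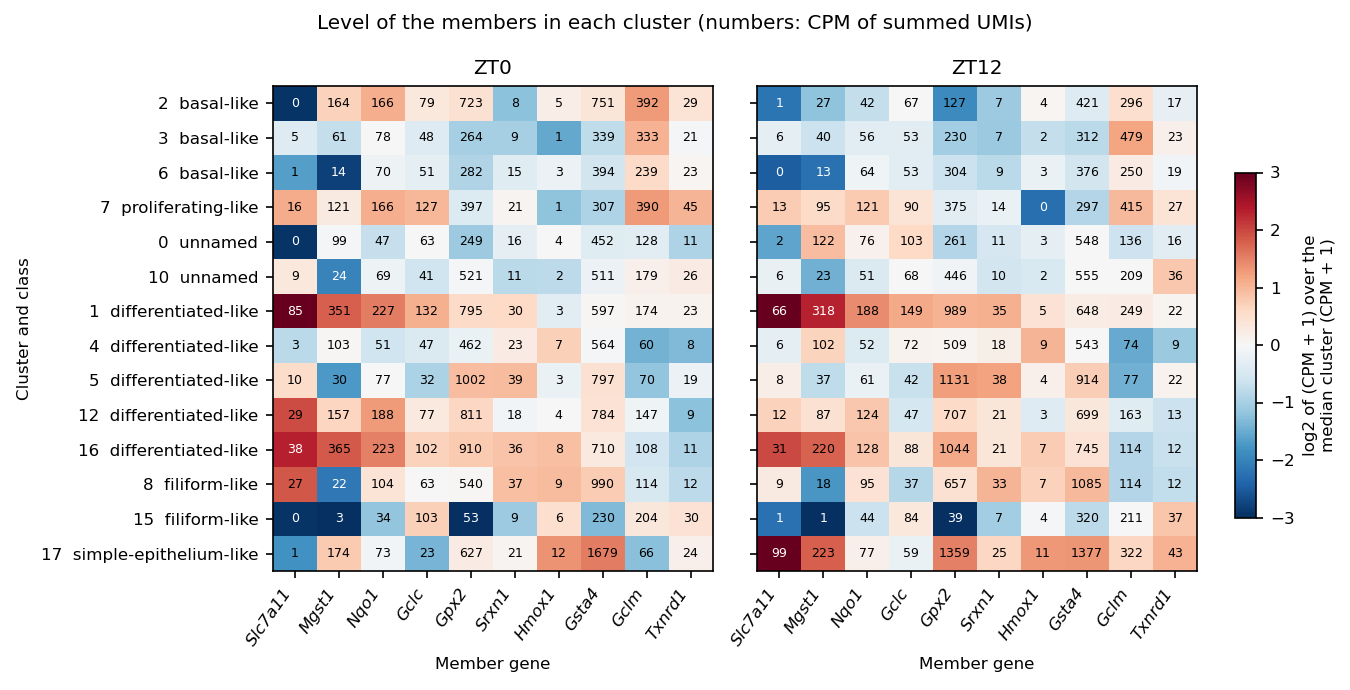
Level of the 10 genes (columns) in the 14 clusters with at least 20 cells in each library (rows), at ZT0 (left) and ZT12 (right). Printed numbers are CPM and colour is the log2 of CPM + 1 over the same value of the median cluster in that library; cluster 1 is at or above the median for 9 of the 10 genes at ZT0 and for all 10 at ZT12.

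Across single clusters, the genes were high together in cluster 1, a differentiated-like cluster of 132 cells at ZT0 and 243 at ZT12. Although the 10 genes took no part in the clustering, Slc7a11 and Mgst1 were among its 10 leading genes, beside Arg2, Sptssb, Arhgef26, Thbd, Plppr4, Cdhr1, Depdc7 and Fyn. Against all other cells of the same library, 6 of the 10 genes were higher by the rule in both libraries (Slc7a11, Mgst1, Nqo1, Gclc, Gpx2 and Srxn1), where 2.03% of all genes were. None was lower in both, against 8.66% of all genes.

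The Slc7a11 level of cluster 1 was 85.2 CPM (ZT0) and 66.2 CPM (ZT12), against 8.41 and 5.86 CPM in all other cells, ratios of 10.1 (8.80 to 11.7) and 11.3 (9.85 to 13.0). The cluster held 8.29% of the cells and 10.5% of all UMIs at ZT0 but 54.3% of the Slc7a11 UMIs. At ZT12 it held 9.27% of the cells, 12.2% of all UMIs and 61.1% of those of Slc7a11. For Mgst1 the levels were 351 and 318 CPM against 95.2 and 79.4 CPM elsewhere, ratios of 3.69 (3.49 to 3.90) and 4.002 (3.81 to 4.20). Nqo1 reached 227 and 188 CPM against 96.8 and 70.4 CPM, and Gclc 132 and 149 CPM against 66.5 and 73.6 CPM. Gpx2 reached 795 and 989 CPM against 489 and 449 CPM. Srxn1 reached 30.02 and 34.5 CPM against 19.9 and 16.4 CPM.

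Set against other differentiated-like cells only, cluster 1 had 6 of the 10 genes higher by the rule in both libraries, where 5.16% of all genes were, and none lower, against 5.61%. These 6 were Slc7a11, Mgst1, Nqo1, Gclc, Gclm and Txnrd1, so Gpx2 and Srxn1 were no longer among them. As classes, differentiated-like cells had less Gclm and Txnrd1 than basal-like cells. Cluster 1 had 174 CPM of Gclm and the other differentiated-like cells 81.4 CPM at ZT0, and 249 and 87.2 CPM at ZT12, ratios of 2.13 (1.96 to 2.32) and 2.85 (2.69 to 3.03). Txnrd1 stood at 23.4 and 12.9 CPM at ZT0 and at 21.6 and 13.7 CPM at ZT12, ratios of 1.81 (1.44 to 2.27) and 1.57 (1.31 to 1.89). In cluster 5, also differentiated-like, Txnrd1 stood at 19.3 CPM (ZT0) and 22.2 CPM (ZT12), near its level in cluster 1. Against all other cells Gclm was not called in cluster 1, with 187 CPM elsewhere at ZT0, a ratio of 0.928 (0.865 to 0.994), and 178 CPM elsewhere at ZT12, a ratio of 1.40 (1.33 to 1.46). Gsta4 was at 0.816 (0.784 to 0.849) and 0.961 (0.932 to 0.991) times its level in the other differentiated-like cells.

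The other high states each held part of the set. Cluster 16, differentiated-like cells led by Serpinb3c, Gzmn and Ada (35 and 36 cells), had 4 genes higher in both libraries: Slc7a11, Mgst1, Nqo1 and Gpx2. Over all genes 3.24% were. Gclm was lower there in both libraries, as were 14.8% of all genes. Mgst1 stood there at 365 CPM (334 to 397) at ZT0, which overlaps the interval of cluster 1 (335 to 367), and at 220 CPM (191 to 252) at ZT12, below that of cluster 1 (306 to 330). Cluster 5, led by Krt76, Tchh and Flg, had the highest Srxn1 in both libraries, 38.7 and 37.9 CPM, with intervals that overlap those of cluster 8. It also had the highest Gpx2 at ZT0, 1002 CPM. Its Mgst1 was low, with 29.99 CPM (ZT0) and 37.4 CPM (ZT12).

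The filiform-like clusters differed from each other. Cluster 8, led by Krt10 and Krt16 with Krt36, had 990 and 1085 CPM of Gsta4, above every other cluster shown but 1. Cluster 15, led by Krt84 and Krt36, had the lowest Gpx2 in both libraries, 53.4 and 39.1 CPM, and the lowest Mgst1, 3.44 and 0.724 CPM. Its Gclc stayed at 103 and 84.0 CPM. The highest Gsta4 in both libraries was in cluster 17, simple-epithelium-like cells led by Ltf, Wfdc18, Psca and Krt8 (35 cells in each library), with 1679 and 1377 CPM.

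Cluster 17 had 1 UMI of Slc7a11 at ZT0 and 64 UMIs at ZT12. Of the 35 ZT12 cells, 12 had any, and 2 of them held 38 of the 64. Without those 2 cells the level was 45.3 CPM in place of 99.2 CPM. Gclm was 66.1 and 322 CPM in this cluster, and Gpx2 627 and 1359 CPM, and 6 of the 10 genes were above all other cells by the rule at ZT12 (Slc7a11, Mgst1, Gclm, Txnrd1, Gsta4 and Gpx2) but 2 at ZT0 (Hmox1 and Gsta4).

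Gclm was highest in basal-like cluster 3 and proliferating-like cluster 7 (333 and 390 CPM at ZT0, 479 and 415 CPM at ZT12), together with cluster 2 at ZT0. Txnrd1 was highest in cluster 7 at ZT0, at 45.1 CPM (40.3 to 50.4). At ZT12 clusters 17, 15 and 10, with 43.4, 36.9 and 36.4 CPM, had overlapping intervals. Proliferating-like cells as a class, against basal-like cells, had Slc7a11, Mgst1, Nqo1 and Txnrd1 higher by the rule in both libraries and none lower, where 8.25% of all genes were higher and 3.82% lower. Slc7a11 was nearly absent from several clusters. Basal-like cluster 6, led by Trabd2b, Nrp2 and Npnt, had 1.45 CPM (3 UMIs) at ZT0 and 0.456 CPM (1 UMI) at ZT12. Basal-like cluster 2 had 0 and 0.772 CPM and unnamed cluster 0 had 0 and 1.72 CPM. Filiform-like cluster 15 had 0 CPM at ZT0.

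**Figure D3:**
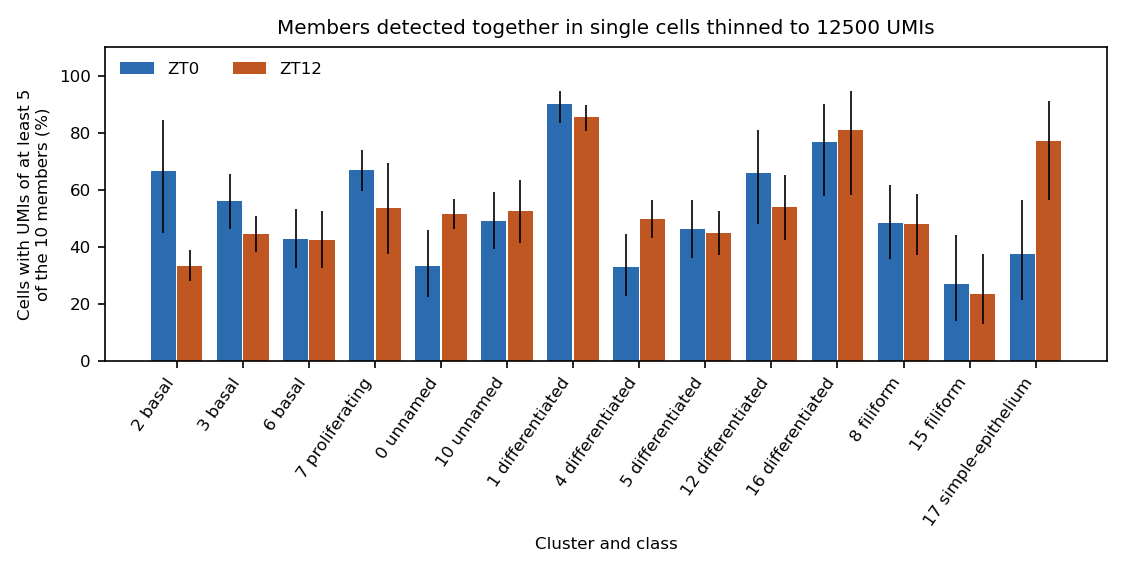
Share of cells (%) with at least 1 UMI of 5 or more of the 10 genes, after thinning every cell to 1 fixed depth, in clusters with at least 20 cells in each library, at ZT0 (blue) and ZT12 (orange). Bars start at 0 and lines are exact 95% binomial intervals; cluster 1 stands at 89.9% and 85.5%, above the other clusters, though intervals of small clusters such as 16 overlap its own.

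Several of the genes were also detected in the same cells of cluster 1. Such a share rises with the level of each gene, and whether it exceeds what the levels alone give was not tested. Every cell was thinned to 1 fixed depth under the median of both libraries, which left out 132 cells at ZT0 and 261 at ZT12. At least 5 of the 10 genes had a UMI in 89.9% of cluster 1 cells at ZT0 and 85.5% at ZT12, against 51.3% and 51.4% of all cells. The share was 61.5% and 61.6% in differentiated-like and 39.4% and 38.8% in basal-like cells. In proliferating-like cells it was 65.6% at ZT0 and 39.7% at ZT12. Cluster 17 had 37.5% and 76.9%, and more UMIs of the 10 genes per thinned cell than cluster 1, a mean of 32.5 and 44.2 against 29.7 and 31.2. Of the 9 myeloid-like cells at ZT0 and 3 at ZT12, none had 5. Before thinning the median myeloid-like cell at ZT0 had 18032 UMIs. In those 9 cells Slc7a11, Nqo1, Hmox1, Srxn1, Gsta4 and Gpx2 had no UMI and Mgst1 had one in 1 cell, while Gclc and Txnrd1 had one in 5 cells each and Gclm in 3. A count of 0 of 9 cells allows a share of up to 33.6% by the exact interval. The T/NK-like cells (T and natural killer markers) differed. Of the 3 thinned at ZT0, 33.3% had 5 or more, with a mean of 24 UMIs of the 10 genes. Before thinning, the 11 such cells at ZT0 had 363 CPM of Gclm, 416 CPM of Gsta4 and 257 CPM of Gpx2. Basal-like cells had 272, 386 and 251 CPM. The 6 T/NK-like cells at ZT12 had 41.5, 20.7 and 0 CPM. The source of these UMIs was not tested.

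Slc7a11 was detected in 35.7% (27.4 to 44.6) of cluster 1 cells at ZT0 and 31.8% (26.0 to 38.1) at ZT12 after thinning, and in 60.6% and 44.4% before. In basal-like cells it was detected in 2.22% (1.02 to 4.17) and 2.58% (1.51 to 4.10). Mgst1 was detected in 95.3% and 90.5% of cluster 1 cells and in 29.6% and 26.0% of basal-like cells. Gclm was detected in 78.3% and 85.5% of cluster 1 cells and in 91.1% and 94.2% of basal-like cells.

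Pairs of genes were compared over the 33 sums of a cluster within a library, which share depth and library. Of the 45 pairs, 11 had a Pearson r above 0.5 in both libraries. Gsta4 and Gpx2 had the highest value over all sums, 0.76, and Srxn1 and Gpx2 had 0.74. In all, 6 pairs were below -0.3 in both libraries, 4 of them with Gclm (Hmox1, Srxn1, Gsta4 and Gpx2) and 2 with Txnrd1 (Hmox1 and Srxn1). Gclm and Txnrd1 had an r of 0.64 with each other. Within single differentiated-like cells at equal depth, 6 of the 45 pairs had a Spearman rho above 0.2 in both libraries, led by Mgst1 with Nqo1 (0.41 and 0.36), and within basal-like cells none did. These correlations are descriptions, with no test.

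The genes whose mean profile over the same 33 sums was most like that of the 10 genes, among 5741 genes compared, were Arhgef26, Cdk2ap2, Atf4, Sptssb, Entpd5, Pmm1, Marcks, Tmprss4, Nadk and Cyb561, with r from 0.75 to 0.69. Atf4, the transcription factor of amino acid stress, had an r of 0.73. Nadk makes NADP. For Slc7a11 alone the closest were Pmm1, Arhgef26, Ebp, Cyc1 and Arg2, with r from 0.79 to 0.66.

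Of the regulators, Nfe2l2 itself was higher in differentiated-like cells by the rule in both libraries. Basal-like cells had 174 CPM of Nfe2l2 and differentiated-like cells 416 CPM at ZT0, and 164 and 409 CPM at ZT12, ratios of 2.39 (2.27 to 2.52) and 2.49 (2.38 to 2.60). It stood at 583 and 540 CPM in cluster 1, the highest of the clusters with at least 20 cells in both libraries. Cluster 5, low in Mgst1 and Gclc, had 547 and 528 CPM, with intervals that overlap those of cluster 1. Keap1 was 89.3 and 61.2 CPM at ZT0 and 88.8 and 69.5 CPM at ZT12, and Bach1 48.2 and 28.3 CPM and then 36.9 and 26.1 CPM. By the rule Bach1 was lower in differentiated-like cells at ZT0, with a ratio of 0.586 (0.520 to 0.661), and at ZT12 the ratio of 0.706 (0.633 to 0.788) was short of it, while Keap1 was called in neither library. The NRF2 protein and its binding were not measured.

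Of the 73 genes of the wider list that could be called in both libraries, 21 were higher in differentiated-like cells in both and 13 lower, against 10.4% and 23.7% of all genes, so that the share lower was under that of all genes. Of the 6 NADPH-supply genes, 5 were higher: G6pdx, Pgd, Taldo1, Me1 and Idh1. The enzymes of all but Taldo1 reduce NADP, which serves glutathione and thioredoxin recycling. Pgd went from 50.9 to 149 CPM at ZT0 and from 51.1 to 193 CPM at ZT12. Of the 17 callable glutathione S-transferases, 7 were higher and 1, Gstm2, was lower. These transferases share reads with close copies, so their split is uncertain. All 3 callable glutathione peroxidases other than Gpx2, namely Gpx1, Gpx4 and Gpx8, were lower in differentiated-like cells. Slc3a2, the partner of xCT in the membrane, was also lower, 117 and 70.4 CPM at ZT0 and 149 and 87.0 CPM at ZT12 in basal-like and differentiated-like cells.

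**Figure D4:**
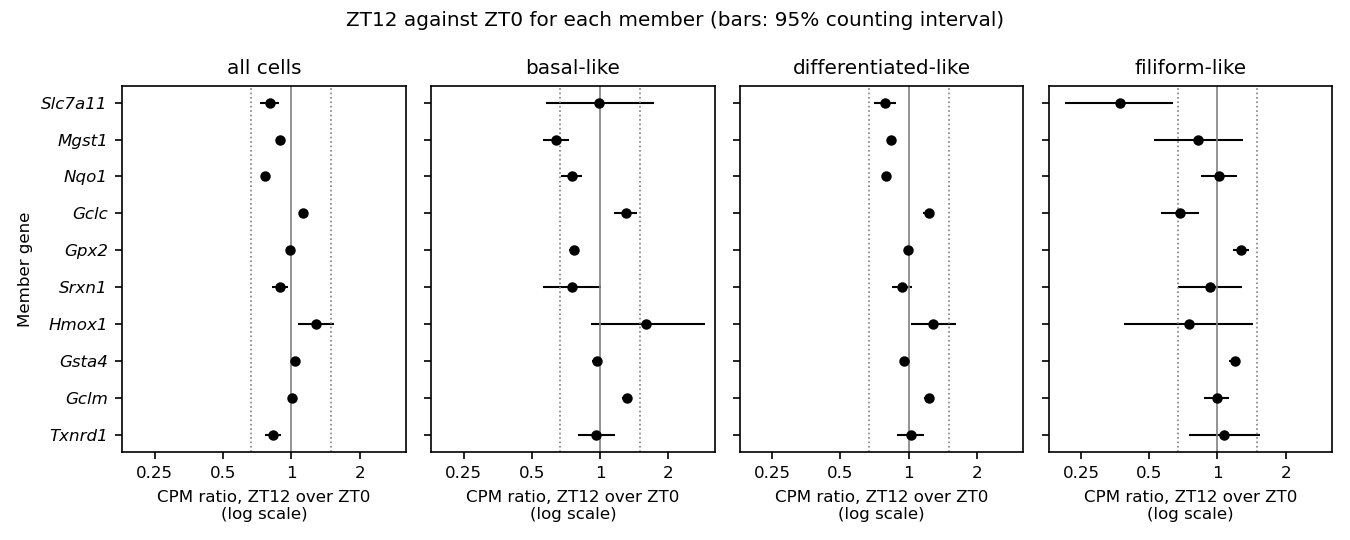
Ratio of CPM at ZT12 over ZT0 (log axis) of each of the 10 genes in all cells, basal-like, differentiated-like and filiform-like cells. Points are ratios, bars exact 95% counting intervals, the solid line marks equality and the dotted lines a ratio of 1.5 either way; in all cells every gene lies between the dotted lines.

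ZT12 was then set against ZT0. Over all cells 0 of the 10 genes met the rule in either direction, against 1.16% of 9543 genes that were higher and 5.46% that were lower at ZT12. Hmox1 was under the minimum level. With 1 library per time no test can be made, and a difference has no replicate check. Ratios ran from 0.767 (0.739 to 0.796) for Nqo1, with 110 and 84.7 CPM, to 1.28 (1.07 to 1.53) for Hmox1, with 3.92 and 5.01 CPM at ZT0 and ZT12. Gclm was 186 and 187 CPM, a ratio of 1.00 (0.978 to 1.03). Gpx2 was 521 and 515 CPM. Slc7a11 was 16.5 and 13.2 CPM, a ratio of 0.803 (0.730 to 0.885). When each cell was given equal weight, by the mean of per-cell CPM, Slc7a11 had a ratio of 0.641 over all cells and met the rule.

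In differentiated-like cells no gene of the set met the rule, where 0.967% of all genes were higher and 2.40% lower. Slc7a11 had 25.9 and 20.4 CPM there, a ratio of 0.786 (0.705 to 0.877), and 0.591 without the clusters found in 1 library and 0.564 by the mean of per-cell CPM, both past the rule. Gclc and Gclm each had a ratio of 1.22 (1.15 to 1.30 and 1.16 to 1.29). Leaving out the clusters found in 1 library removed only cluster 13 from this class, 25.3% of its ZT0 and 0.182% of its ZT12 cells. Clusters 11 and 14 stayed in, with 3.10% and 2.78% of the class at ZT0 and 14.1% and 11.6% at ZT12. Within clusters the Slc7a11 ratio was 0.777 in cluster 1, 0.807 in cluster 5 and 0.423 in cluster 12. Only cluster 12 met the rule, and cluster 4 was under the minimum level.

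In basal-like cells Mgst1 was lower at ZT12, at 29.7 CPM (414 UMIs) against 46.6 CPM (459 UMIs) at ZT0, a ratio of 0.638 (0.558 to 0.731). It was the only gene of the set called there, against 3.09% of all genes higher and 4.29% lower. The class was not made of the same clusters: cluster 9 held 45.6% of the ZT0 cells and 0.539% of the ZT12 cells, and cluster 2 held 5.56% and 47.0%. Without the clusters found almost wholly in 1 library the Mgst1 ratio was 0.783, short of the rule, and Srxn1, with a ratio of 0.628, met it instead.

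In filiform-like cells Slc7a11 was lower at ZT12, at 5.87 CPM (22 UMIs) against 15.7 CPM (44 UMIs), a ratio of 0.374 (0.213 to 0.637), where 2.29% of all genes were higher and 3.41% lower. Nearly all of these UMIs, 44 and 21, lay in cluster 8. In proliferating-like cells, whose 200 and 79 cells fell under the size set for the comparison, 5 genes were lower at ZT12 (Slc7a11, Mgst1, Gclc, Nqo1 and Srxn1), against 6.83% of all genes higher and 8.87% lower. Cluster 7 made up 94.5% of that class at ZT0 and 53.2% at ZT12. Within cluster 7 none of the 5 reached the ratio of 1.5 in size except Srxn1, which had 14 UMIs at ZT12 and a ratio of 0.656 (0.350 to 1.14), and Gclc was 127 and 90.2 CPM. Txnrd1, not among the 5, had 45.1 and 27.5 CPM in cluster 7, a ratio of 0.609 (0.398 to 0.897).

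**Figure D5:**
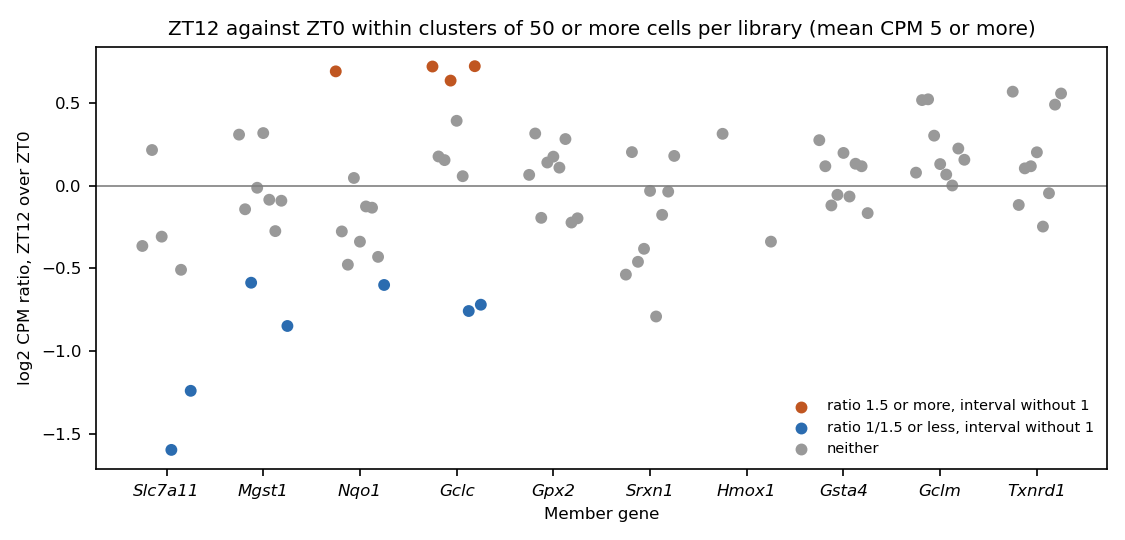
The log2 ratio of CPM at ZT12 over ZT0 of each of the 10 genes within the 9 clusters that have at least 50 cells in each library, where the mean level was at least 5 CPM. Each point is 1 cluster; orange and blue points meet the rule at ZT12 in the higher and lower direction, and all 9 Gclm points lie at or above 0.

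Within the 9 clusters with at least 50 cells in each library, the Gclm ratio of ZT12 over ZT0 was above 1 in all 9, as it was for 4.41% of the 9543 genes. In cluster 8 both levels rounded to 114 CPM, and no single cluster met the rule, by which 2.46% to 4.17% of all genes were higher at ZT12 in each. The ratios of Mgst1, Nqo1 and Srxn1 were below 1 in 7 of the 9. Mgst1 met the rule in cluster 3 (60.6 and 40.3 CPM, 4.53% of all genes lower) and cluster 12 (157 and 87.3 CPM, 3.36% of all genes lower). Slc7a11 met it in cluster 8 (26.9 and 8.87 CPM, 3.54% of all genes lower) and cluster 12 (28.9 and 12.2 CPM). Cluster 1 had no gene of the set past the rule, against 2.67% of all genes higher and 3.86% lower. Gclc went both ways: it was higher at ZT12 in clusters 0 (62.7 and 103 CPM, 4.17% of all genes higher), 4 (46.6 and 72.4 CPM, 2.81%) and 10 (41.1 and 67.8 CPM, 3.82%), and lower in clusters 8 (62.9 and 37.2 CPM) and 12 (77.1 and 46.8 CPM). Nqo1 was higher in cluster 0 and lower in cluster 12.

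Over the 73 callable genes of the wider list in all cells, Prdx6 was higher at ZT12 and Akr1b8, Osgin1 and Prdx4 were lower, counts near the 1.16% and 5.46% of all genes, while the list's median log2 ratio was -0.04 against -0.03 over all genes. Prdx6, a peroxiredoxin that uses glutathione, stood at 522 and 843 CPM, a ratio of 1.61 (1.59 to 1.64). Osgin1, an NRF2 target that slows growth, stood at 14.2 and 7.64 CPM. In basal-like cells it stood at 16.1 CPM (159 UMIs) and 1.15 CPM (16 UMIs). Akr1b8, an aldo-keto reductase, stood at 18.2 and 10.5 CPM, and Prdx4, the peroxiredoxin of the endoplasmic reticulum, at 34.9 and 19.98 CPM. Nfe2l2, Keap1 and Bach1 had ratios of 1.04 (1.02 to 1.07), 0.980 (0.940 to 1.02) and 0.870 (0.816 to 0.928).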

How the data were processed

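The deposited values were raw UMI counts per gene and cell barcode, taken as deposited with no correction for free RNA. Cell Ranger 2.1.1 and mm10 are named by the submitters' processing notes, and Cell Ranger 4.0.0 per the file headers, a discrepancy that was not settled. Barcodes with under 500 genes or at least 10% mitochondrial UMIs were removed. Scrublet called 4 and 8 doublets (0.25% and 0.304%), so doublets were in effect not removed.

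Cells of both libraries were clustered together with scanpy 1.11.5 and leidenalg 0.10.2 (2000 variable genes, 30 components, 15 neighbours, resolution 1.0), without integration and without the 10 genes, the wider list, and genes of the clock, early response, heat shock, ribosome, mitochondrion and sex chromosomes. Names came from marker lists by a scoring rule set once clusters had been seen, and a cluster whose leading genes contradicted its name was left unnamed.

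UMIs were summed per library and group. Intervals on shares are exact Clopper-Pearson and those on ratios exact conditional binomial intervals. With 1 library per time no p-value is given. The rule for calls recovered 66 of 66 genes changed by 2-fold and 67 of 67 changed by 4-fold in data simulated for the comparison of all cells, and 0 of 67 changed by 1.25-fold. Named genes were the 10 genes, those of the wider list with the largest ratios in each sub-list at 20 CPM or more or called in all cells, the regulators Nfe2l2, Keap1 and Bach1, and the genes most alike in profile. Wider-list genes named for the comparison of states were chosen after their values were seen. The genes and lists were chosen with earlier results of these data known. Promoters and their sequences were taken from RefSeq, and gene positions from GENCODE M21 on the same assembly.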

Additional observations from a re-analysis of the deposited data

Results flagged for a closer look

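Gclc differed in direction between clusters: its ratio of ZT12 over ZT0 was 1.65 in cluster 0, 1.55 in cluster 4 and 1.65 in cluster 10, and 0.591 in cluster 8 and 0.607 in cluster 12, each with a counting interval that excluded 1. From ZT0 to ZT12, cluster 0 went from 62.7 to 103 CPM and cluster 8 from 62.9 to 37.2 CPM. Nqo1 likewise had a ratio of 1.61 in cluster 0 (47.3 and 76.4 CPM) and 0.659 in cluster 12 (188 and 124 CPM). With 1 library per time the difference between clusters was not tested.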

How the results depend on the processing

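For the ratios of ZT12 over ZT0 of the 10 genes in all, basal-like, differentiated-like and filiform-like cells, and of differentiated-like over basal-like cells, no called value changed direction under the alternatives tried. Calls in proliferating-like cells and within clusters were made under 1 setting only. Over all cells the number of the 10 genes lower at ZT12 was 1 by the mean of per-cell CPM. In basal-like cells the number higher was 1 (Gclc) under a filter of 1000 genes and 5% mitochondrial UMIs, and the number lower was 0 under that filter, resolution 1.5, a minimum mean of 50 CPM or a fold of 2. In differentiated-like cells the number lower was 1 (Slc7a11) by the mean of per-cell CPM and without clusters found in 1 library. In filiform-like cells the number higher was 1 (Txnrd1) by the mean of per-cell CPM. The number lower there was 3 under the stricter filter, 2 under resolution 0.5, with the genes allowed in clustering and by the mean of per-cell CPM, and 0 at a minimum of 50 CPM. The cause was not tested. The cluster that held most of cluster 1 had 6 of the 10 genes higher than other cells in both libraries at resolution 0.5 and with the genes allowed in clustering, 5 at resolution 1.5 and 4 under the stricter filter. No paired analysis was possible because there is 1 library per time. Depth limits Hmox1, whose 193 and 336 UMIs leave wide intervals within clusters, and no spread between animals can be given.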

Other observations

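Of the 21 clusters, 3 came almost wholly from 1 library and took no part in the comparison of times within clusters. Cluster 9, basal-like cells led by H19, Cxcl9 and H2-Q7 (197 cells at ZT0 and 4 at ZT12), had 227 CPM of Gclm and 35.2 CPM of Mgst1. Cluster 13, differentiated-like cells led by Chil4, Cxcl10 and Sprr2a3 (155 and 2 cells), had 169 CPM of Mgst1, 106 CPM of Nqo1 and 1.82 CPM of Slc7a11. The third was cluster 2, basal-like cells led by Glul, Igfbp4 and Bhlhe41, with 24 cells at ZT0 and 349 at ZT12. Its few ZT0 cells had 723 CPM of Gpx2, 164 CPM of Mgst1 and 166 CPM of Nqo1, where the ZT12 cells had 127, 27.0 and 42.0 CPM.

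In differentiated-like cluster 14, led by Crct1, Sprr3 and Lor, the 127 ZT12 cells had 155 CPM of Mgst1 and 3.02 CPM of Slc7a11. In cluster 11, led by Wfdc12, Dapk2 and Slc16a9, the 154 ZT12 cells had 126 CPM of Gclc and 1.77 CPM of Slc7a11. Gsr, the reductase that restores glutathione, was 6.39 and 5.86 CPM in cluster 1, against 18.7 and 15.01 CPM in differentiated-like cells as a whole. The class was uneven, with 64.4 and 67.8 CPM in cluster 5 and 1.70 and 1.65 CPM in cluster 4. Cluster 1 was thus not its lowest cluster.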
